A study of Mus musculus with 24 samples.

Results

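The genes described here are 42 genes of G2 and M phase, the stretch of the cell cycle in which a cell prepares for and carries out division. They were taken from a fixed list of gene symbols, which was chosen with earlier results of these data known. All 42 were found among the 35968 genes to which the deposited transcripts could be assigned. All 42 also passed the filter on low counts, which left 14577 genes for testing. RNA was measured in C2C12 cells, a mouse myoblast line, which the labels call undifferentiated and which were kept below confluence in serum-containing medium. Cells were collected 48 h after transfection with siRNA to deplete Keap1 (siKeap1), siRNA to deplete Fem1b (siFem1b), the pair of them (siFem1b/Keap1) or a control siRNA with no target (siCont). Each group held 3 libraries of poly(A)-selected RNA, and each library was sequenced in 2 runs, which were added up here. Each target was depleted with a single siRNA sequence in 1 cell line. KEAP1 and FEM1B are substrate receptors of ubiquitin ligases. KEAP1 marks the stress-response factor NRF2 for degradation, and FEM1B is placed by the study's title in the response to reductive stress.

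In mitosis, the kinase CDK1 bound to a cyclin drives chromosome condensation and spindle assembly, kinetochores attach the chromosomes to spindle microtubules, and a checkpoint delays anaphase until every chromosome is attached. The anaphase-promoting complex then marks securin and the cyclins for destruction, the sister chromatids part, and cytokinesis divides the cell. Transcripts of these genes accumulate late in the cycle in dividing cells, and myoblasts leave the cycle when they differentiate into muscle fibres. In bulk RNA, fewer cells of a type and less RNA per cell cannot be told apart.

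The libraries held 31.9 M to 43.0 M estimated counts with 18690 to 19973 genes detected. Keap1 had 10.2, 11.1 and 8.59 CPM (read counts scaled to library size) in siKeap1 cells and 9.57, 9.20 and 9.38 CPM in siFem1b/Keap1 cells, against 60.6, 63.3 and 61.4 CPM in siCont cells. Fem1b had 12.8, 13.6 and 13.4 CPM in siFem1b cells and 12.4, 14.2 and 11.6 CPM in siFem1b/Keap1 cells, against 95.2, 94.1 and 101 CPM in siCont cells. Each target was therefore low in every library labelled with its siRNA. Of the markers listed for myoblasts, 8 of 8 passed the filter on low counts. Their summed level was 1690 to 1743 CPM in siFem1b/Keap1 cells and 1956 to 2095 CPM in siFem1b cells. It was 1355 to 1455 CPM in siKeap1 cells, against 1566 to 1599 CPM in siCont cells. Des held 671 to 679 CPM of the siCont sum, and the markers moved in both directions. In siKeap1 cells 4 fell and 1 rose (edgeR adjusted p under 0.05). In siFem1b cells 1 fell and 7 rose, and in siFem1b/Keap1 cells 2 fell and 6 rose. Of all tested genes, 23.8%, 32.1% and 33.7% fell and 18.4%, 30.0% and 33.8% rose in these comparisons. The labels do not say that libraries came from separate cultures, and the p-values below therefore rest on library-to-library spread alone, which may be technical.

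The mitosis genes were among the more abundant transcripts of these cells. In siCont cells their length-corrected abundance ranged from 10.4 TPM for Kif18a to 487 TPM for Cdk1, with a median of 93.3 TPM. The median over all tested genes was 14.6 TPM, and 41 of the 42 genes lay above it.

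The mitosis genes were lower in each depletion than in siCont cells, and lowest when both siRNAs were given. Summed over the 42 genes, their level was 6015 ± 60.7 CPM in siKeap1 cells, 5679 ± 91.2 CPM in siFem1b cells and 3881 ± 107 CPM in siFem1b/Keap1 cells, against 7721 ± 81.7 CPM in siCont cells (SD, n = 3 each). These sums are 77.9%, 73.6% and 50.3% of the siCont level. In siKeap1 cells 40 of the 42 genes fell (edgeR's quasi-likelihood test, Benjamini-Hochberg adjusted p under 0.05 over all tested genes) and none rose, where 23.8% of all tested genes fell and 18.4% rose. In siFem1b cells 39 fell and 2 rose, where 32.1% of all tested genes fell and 30.0% rose. In siFem1b/Keap1 cells all 42 fell, where 33.7% of all tested genes fell and 33.8% rose. The median log2 fold change of the 42 genes was -0.33, -0.46 and -0.98 in these 3 comparisons, while the median of all tested genes was -0.024, -0.009 and 0.005. The 3 comparisons share the siCont libraries, so they are not independent of each other.

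A gene-by-gene count of libraries gave the same order. All 3 depleted libraries were below all 3 siCont libraries for 41 genes in siKeap1 cells, 39 in siFem1b cells and 42 in siFem1b/Keap1 cells, where 28.9%, 32.5% and 35.2% of all tested genes were. All 3 siFem1b/Keap1 libraries were below all 6 libraries with a single targeting siRNA, and those were below all 3 siCont libraries, for 39 of the 42 genes, where 7.93% of all tested genes had this order. The exceptions were Cdc25b, Nusap1 and Kif18a. Of the 42 genes, 38 fell in all 3 comparisons with siCont, where 11.1% of all tested genes did.

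**Figure D1:**
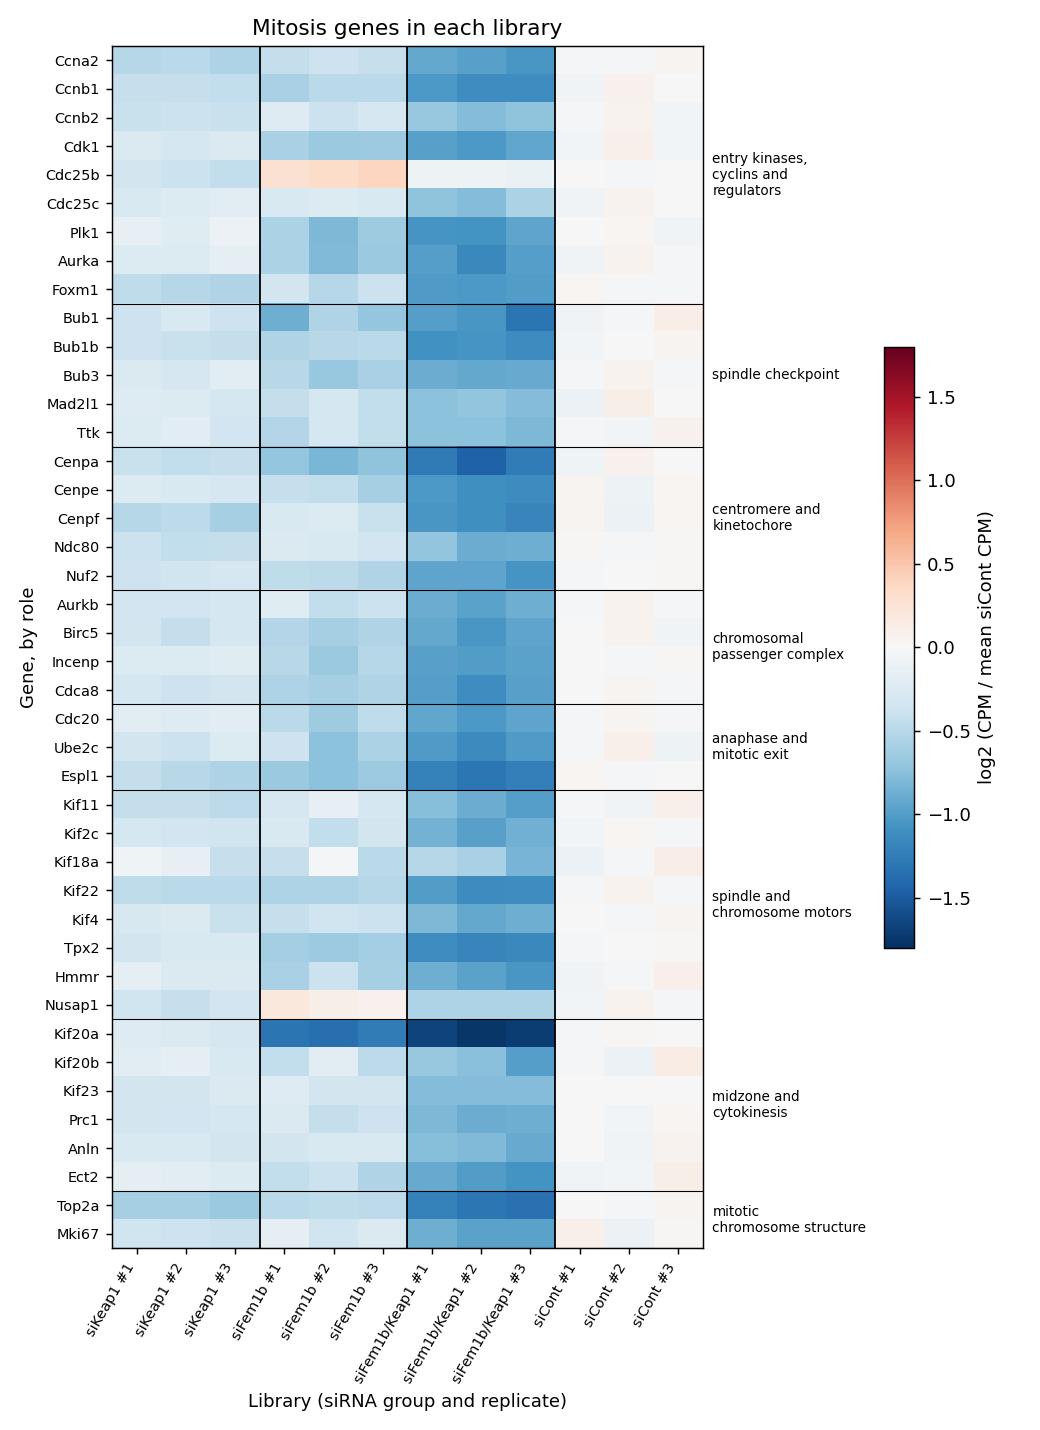
Heat map of the 42 mitosis genes (rows, grouped by role) in the 12 libraries (columns, by siRNA group and replicate). Colour gives log2 of the CPM over the mean siCont CPM of the gene, blue for lower and red for higher; the siFem1b/Keap1 columns are the darkest blue in nearly every row, and the red cells in the siFem1b columns belong to Cdc25b and Nusap1.

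The promoters of the mitosis genes were searched for sequence motifs, and the part of these motifs in the fall of the genes was not tested. RefSeq promoters on build GRCm38.p6, from 250 bases before to 50 bases after the annotated start, were listed for 35 of the 42 genes, with 2 starts each for Bub3, Ect2 and Prc1. Promoters of Aurkb, Ccna2, Cdc25c, Foxm1, Incenp, Kif20a and Tpx2 were not used here. Searches covered both strands for the cell cycle homology region (CHR; the letters TTTGAA, their reverse complement TTCAAA, or the palindrome TTCGAA), an element bound by DREAM and MuvB complexes in late cell cycle genes, and for the CCAAT box (CCAAT or its reverse complement ATTGG), bound by NF-Y. A CHR was present in 28 of the 35 genes (80.0%), against 16.9% of the 10825 tested genes with a listed promoter and 19.2% of all 32851 listed promoters. A CCAAT box was present in 26 of the 35 (74.3%), against 42.8% of tested genes and 37.4% of all promoters. Both were present in 24 (68.6%), against 7.1% and 7.5%. At least 2 CCAAT boxes were present in 18 (51.4%), against 15.9% and 11.7%. E2F sites, searched as TTCCCGC and as TTGGCGC with their reverse complements GCGGGAA and also GCGCCAA, were present in 5 (14.3%), against 13.4% and 6.8%. In 26 of the 28 genes with a CHR, 1 lay within 50 bases of the first listed start, and the exceptions were Kif2c and Mki67. The Bub3 CHR lay at -43 from the first listed start and at -167 from the other. The share of all tested genes with a CHR so near the start was not counted. A match is a description of the letters in this window and not a binding site.

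The following 6 promoters are shown because they belong to genes on which the results turn: Top2a, Cdk1, Plk1 and Cenpa fell with most of the genes, and Cdc25b and Nusap1 went the other way in siFem1b cells. Capitals mark the CHR and the CCAAT box.
Top2a (chr11:99024140-99024439, minus strand): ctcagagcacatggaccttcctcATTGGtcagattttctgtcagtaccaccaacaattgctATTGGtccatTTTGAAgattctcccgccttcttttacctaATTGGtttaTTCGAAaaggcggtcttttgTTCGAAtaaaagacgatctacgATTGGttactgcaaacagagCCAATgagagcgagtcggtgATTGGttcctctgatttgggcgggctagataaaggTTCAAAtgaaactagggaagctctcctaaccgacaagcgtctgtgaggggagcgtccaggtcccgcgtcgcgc
Cdk1 (chr10:69352863-69353162, minus strand): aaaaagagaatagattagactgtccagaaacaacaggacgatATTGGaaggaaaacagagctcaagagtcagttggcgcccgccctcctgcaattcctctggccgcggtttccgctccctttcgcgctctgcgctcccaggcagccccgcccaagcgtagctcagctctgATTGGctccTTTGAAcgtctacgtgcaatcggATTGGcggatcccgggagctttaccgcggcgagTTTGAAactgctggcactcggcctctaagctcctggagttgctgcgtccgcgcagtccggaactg
Plk1 (chr7:122159185-122159484, plus strand): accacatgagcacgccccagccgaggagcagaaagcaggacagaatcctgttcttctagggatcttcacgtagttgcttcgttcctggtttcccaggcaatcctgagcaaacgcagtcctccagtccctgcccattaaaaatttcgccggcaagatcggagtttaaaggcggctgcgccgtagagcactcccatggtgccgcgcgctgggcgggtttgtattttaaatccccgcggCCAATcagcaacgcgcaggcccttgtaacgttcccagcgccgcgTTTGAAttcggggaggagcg
Cenpa (chr5:30666636-30666935, plus strand): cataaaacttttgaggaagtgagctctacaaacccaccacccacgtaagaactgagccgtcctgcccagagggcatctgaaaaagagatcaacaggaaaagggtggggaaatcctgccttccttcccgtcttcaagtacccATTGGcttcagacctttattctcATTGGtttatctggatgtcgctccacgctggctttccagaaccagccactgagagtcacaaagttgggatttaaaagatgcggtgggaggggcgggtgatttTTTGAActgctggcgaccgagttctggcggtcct
Cdc25b (chr2:131186698-131186997, plus strand): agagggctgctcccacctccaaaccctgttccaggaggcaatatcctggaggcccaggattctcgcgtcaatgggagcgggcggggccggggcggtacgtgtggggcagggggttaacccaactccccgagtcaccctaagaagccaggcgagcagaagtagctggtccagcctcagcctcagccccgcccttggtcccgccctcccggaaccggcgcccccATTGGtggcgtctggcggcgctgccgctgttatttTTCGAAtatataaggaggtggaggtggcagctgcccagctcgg
Nusap1 (chr2:119618048-119618347, plus strand): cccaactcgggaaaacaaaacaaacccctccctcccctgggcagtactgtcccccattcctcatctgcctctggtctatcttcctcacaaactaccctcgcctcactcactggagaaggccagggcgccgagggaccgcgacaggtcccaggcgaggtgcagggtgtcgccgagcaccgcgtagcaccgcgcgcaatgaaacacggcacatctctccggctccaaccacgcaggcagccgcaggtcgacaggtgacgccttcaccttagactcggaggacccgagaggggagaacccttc
Top2a held the most matches of the 6, and Nusap1 held neither motif in this window. Cdc25b, which rose in siFem1b cells, held both, as did Plk1 and Cenpa, which fell there. The 24 genes with both motifs had median log2 fold changes of -0.34, -0.51 and -0.99 in siKeap1, siFem1b and siFem1b/Keap1 cells against siCont cells, and the 11 other genes with a listed promoter had medians of -0.34, -0.37 and -0.82. These medians were not tested against each other.

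**Figure D2:**
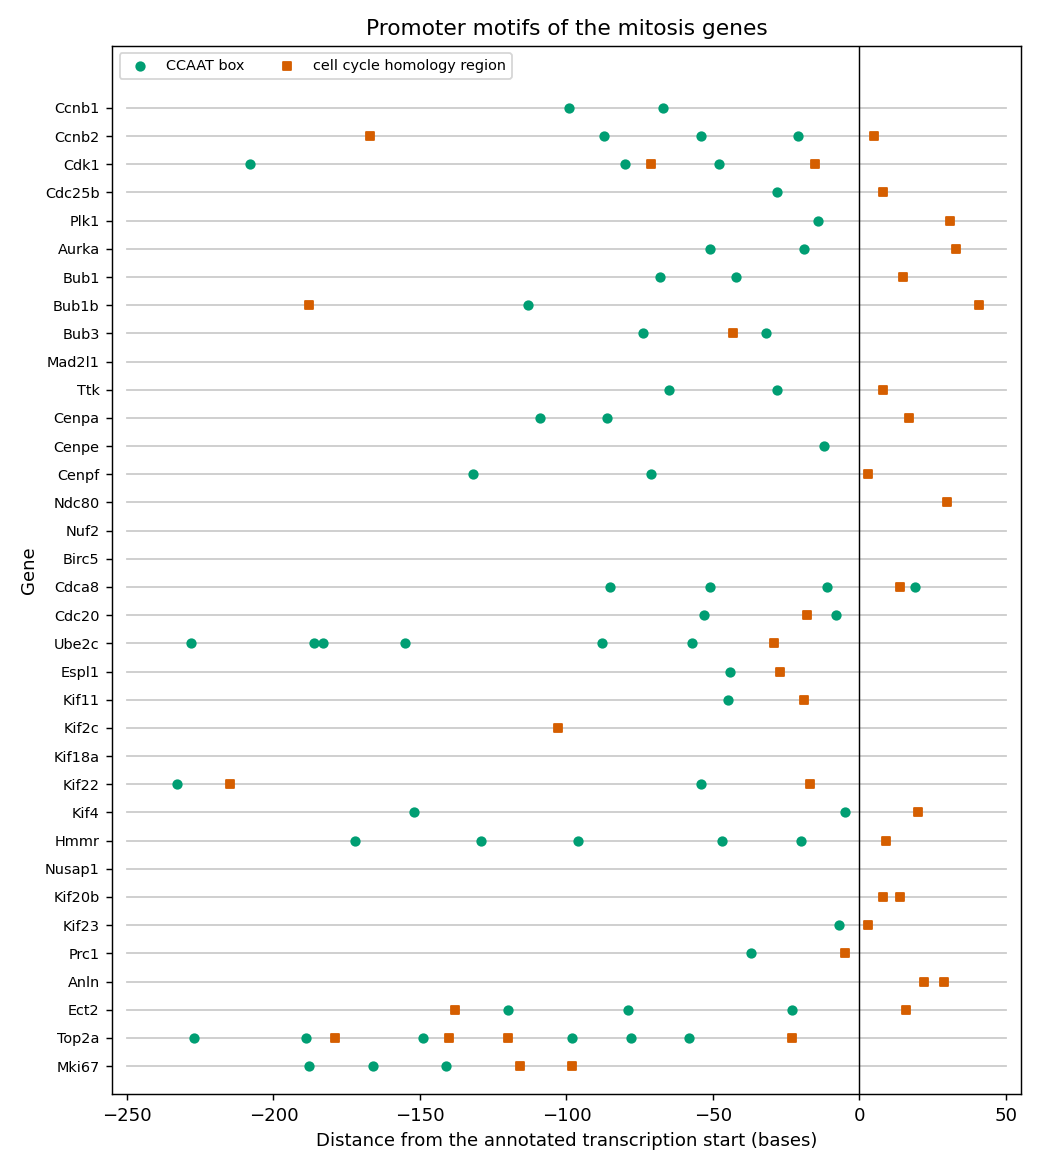
Positions of the CCAAT box (circles) and the cell cycle homology region (squares) in the promoters of the 35 mitosis genes with a listed promoter, on an axis of bases from the annotated transcription start (the first listed start where a gene has 2). In 26 of the 28 genes with a cell cycle homology region a square lies within 50 bases of the start, and CCAAT boxes lie mostly before it.

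The siKeap1 and siFem1b guides were searched against the mitosis genes. A guide can also act through its seed, bases 2 to 8, on transcripts it was not designed for. The siCont guide is printed beside them, but matches to its seed were not searched. An effect of that seed on the siCont libraries was not tested. The study lists the sense strands, which match 5 Keap1 transcripts and 1 Fem1b transcript exactly; the guides are their reverse complements, printed with the seed in capitals.
siKeap1 guide: uCCGUGUCaacauuggcgc
siFem1b guide: uAAUUCUGcacugaucuuc
siCont guide: uCAGAAAAcauguaaacca
A match to the siKeap1 seed (transcript letters GACACGG) occurred in the 3′ UTR of 0 of the 42 genes, where 2.4% of 13917 searched genes had a match. A match to the siFem1b seed (transcript letters CAGAATT) occurred in 2 of 42 (4.8%), Bub3 and Kif20a, where 12% of searched genes had a match. In coding sequence the siKeap1 seed matched 3 of the 42 genes (7.1%, against 8.2% of searched genes) and the siFem1b seed matched 10 (23.8%, against 12.5%). These shares were not tested, and the genes were not matched for the length of the coding sequence. Over all searched genes, the median log2 fold change in siFem1b against siCont cells was -0.137 for the 1672 genes with a 3′ UTR match and 0.012 for the 12245 without. For siKeap1 it was -0.165 for the 339 genes with a match and -0.02 for the 13578 without. These differences were not tested, and the genes were not matched for the length of the 3′ UTR. The Bub3 match, on GRCm38, is shown with the match in capitals.
Bub3 site (chr7:131570999-131571028, plus strand): cttctgtcgtaaCAGAATTgtctctgtgcc
Of the other 40 genes, Ect2 has no 3′ UTR on the transcript searched. The 10 genes with the siFem1b seed match in coding sequence were Bub1, Ccnb1, Cenpe, Cenpf, Ect2, Hmmr, Kif20b, Kif2c, Mki67 and Top2a. Cenpf held 6 matches, Kif20b 4 and Ect2 2, and the rest held 1 each.

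The genes that start mitosis fell in both single depletions, with Cdc25b as the exception. All 9 genes of this group fell in siKeap1 cells, 8 fell and Cdc25b rose in siFem1b cells, and all 9 fell in siFem1b/Keap1 cells. Their median levels were 76.7%, 75.5% and 50.5% of siCont.

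Cdk1, the kinase that triggers mitosis, had 217, 208 and 216 CPM in siKeap1 cells, 173, 163 and 165 CPM in siFem1b cells and 131, 126 and 135 CPM in siFem1b/Keap1 cells, against 250, 276 and 251 CPM in siCont cells. The 4 groups did not overlap, and siFem1b cells were lower than siKeap1 cells. The log2 fold change was -0.28 (SE 0.043, edgeR adjusted p = 3.3e-05) in siKeap1, -0.63 (SE 0.043, 3.3e-10) in siFem1b and -0.99 (SE 0.044, 4.7e-13) in siFem1b/Keap1 cells.

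Ccnb1, which encodes the B-type cyclin that activates CDK1, had 161, 161 and 158 CPM in siKeap1 cells, 144, 153 and 154 CPM in siFem1b cells and 105, 98.9 and 99.5 CPM in siFem1b/Keap1 cells, against 206, 227 and 214 CPM in siCont cells. It had the lowest log2 fold change of the group with both siRNAs, -1.09 (SE 0.043, edgeR adjusted p = 9.4e-14), after -0.43 (SE 0.042, 1.2e-07) in siKeap1 and -0.52 (SE 0.042, 3.7e-09) in siFem1b cells. The groups given a single targeting siRNA stood between the others without overlap. Ccna2, the cyclin that acts from S phase into early mitosis, had 209, 213 and 202 CPM in siKeap1 cells, 222, 231 and 223 CPM in siFem1b cells and 157, 152 and 144 CPM in siFem1b/Keap1 cells, against 291, 295 and 308 CPM in siCont cells. Its log2 fold change of -0.52 (SE 0.039, edgeR adjusted p = 3.5e-09) was the lowest of the group in siKeap1 cells, and here siKeap1 cells were lower than siFem1b cells. Of the exonic bases of Ccna2, 12.5% overlap Exosc9 on the other strand.

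Plk1 and Aurka encode mitotic kinases that act on centrosomes and spindle poles, and both were lower in siFem1b than in siKeap1 cells. Plk1 had 163, 156 and 168 CPM in siKeap1 cells, 122, 103 and 116 CPM in siFem1b cells and 86.6, 85.6 and 93.3 CPM in siFem1b/Keap1 cells, against 181, 186 and 174 CPM in siCont cells. Its log2 fold change was -0.15 (SE 0.055, edgeR adjusted p = 0.033) in siKeap1, -0.66 (SE 0.055, 8.5e-09) in siFem1b and -1.03 (SE 0.056, 1.6e-11) in siFem1b/Keap1 cells. The siKeap1 call was lost when any 1 of 7 libraries was left out (siKeap1 1 or 2, siFem1b 3, siFem1b/Keap1 1 or 3, siCont 1 or 2; edgeR adjusted p 0.066 to 0.13), with either run alone and with library totals. Aurka had 104, 104 and 110 CPM in siKeap1 cells, 82.7, 71.2 and 77.2 CPM in siFem1b cells and 61.8, 54.9 and 61.6 CPM in siFem1b/Keap1 cells, against 118, 129 and 121 CPM in siCont cells. It fell by 0.21, 0.67 and 1.05 on the log2 scale in the 3 depletions, and its groups did not overlap.

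Foxm1, a transcription factor that activates G2 and M genes, had 177, 170 and 166 CPM in siKeap1 cells, 192, 169 and 186 CPM in siFem1b cells and 119, 118 and 120 CPM in siFem1b/Keap1 cells, against 247, 239 and 239 CPM in siCont cells. The groups with a single targeting siRNA overlapped each other and were separate from the rest. Its log2 fold change was -0.50 (SE 0.043, edgeR adjusted p = 2.6e-08) in siKeap1, -0.41 (SE 0.043, 1.4e-07) in siFem1b and -1.02 (SE 0.044, 2.9e-13) in siFem1b/Keap1 cells. Ccnb2, a second B-type cyclin, and Cdc25c, a phosphatase that activates CDK1, fell in all 3 comparisons, by 0.39, 0.30 and 0.73 for Ccnb2 and by 0.23, 0.26 and 0.69 for Cdc25c on the log2 scale.

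Cdc25b encodes another phosphatase that removes the inhibitory phosphates from CDK1, and it was the gene that moved most unlike the rest. It had 120, 115 and 111 CPM in siKeap1 cells, 182, 190 and 197 CPM in siFem1b cells and 142, 142 and 139 CPM in siFem1b/Keap1 cells, against 151, 148 and 152 CPM in siCont cells. It fell in siKeap1 cells (log2 fold change -0.38, SE 0.039, edgeR adjusted p = 1.9e-07) and rose in siFem1b cells (0.33, SE 0.038, 4e-07). With both siRNAs the log2 fold change was -0.10 (SE 0.038, edgeR adjusted p = 0.033), and the siFem1b/Keap1 libraries were below the siCont libraries without overlap. That call was lost without any 1 of the siFem1b/Keap1 libraries or without siCont 1 or 3 (edgeR adjusted p 0.052 to 0.12) and in 4 other alternatives, and with library totals in place of TMM the value was 0.03 (0.59).

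**Figure D3:**
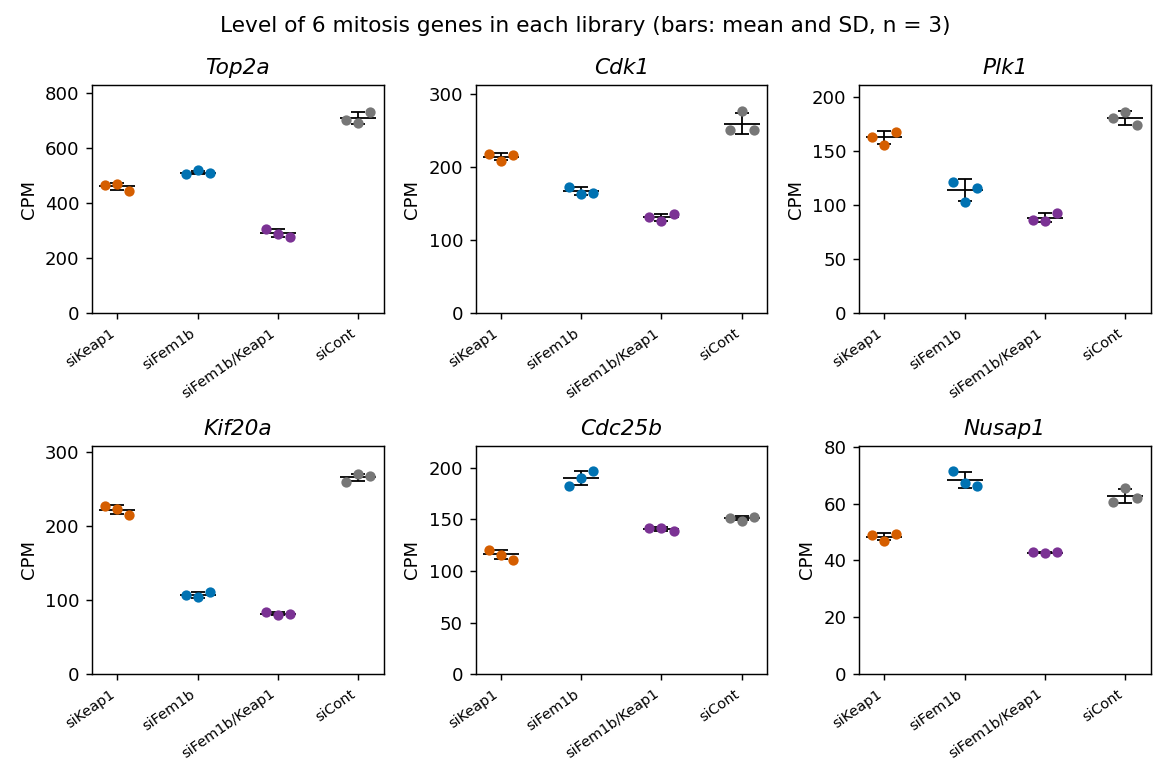
CPM of Top2a, Cdk1, Plk1, Kif20a, Cdc25b and Nusap1 in each of the 12 libraries, by siRNA group; points are libraries, the horizontal line and bars give the mean and SD of 3 libraries, and each axis starts at 0. The siFem1b/Keap1 points are lowest for every gene but Cdc25b, and the siFem1b points are highest for Cdc25b and Nusap1.

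The spindle checkpoint genes, whose products hold back anaphase, all fell in all 3 depletions. The 5 genes had median levels of 83.4%, 70.2% and 53.5% of siCont in siKeap1, siFem1b and siFem1b/Keap1 cells, and all 5 were lower in siFem1b than in siKeap1 cells. Bub1b, which encodes the checkpoint protein BUBR1, had 135, 133 and 130 CPM in siKeap1 cells, 120, 124 and 125 CPM in siFem1b cells and 82.6, 83.5 and 79.6 CPM in siFem1b/Keap1 cells, against 169, 175 and 181 CPM in siCont cells. All 4 groups were separate. Against siCont it changed by -0.40 (SE 0.038, edgeR adjusted p = 7.8e-08), -0.51 (SE 0.038, 1.1e-09) and -1.10 (SE 0.039, 2e-14) on the log2 scale in the 3 depletions.

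Bub1, a checkpoint kinase of the kinetochore, was the lowest of the group in siFem1b and siFem1b/Keap1 cells and the most variable. It had 82.4, 88.3 and 82.7 CPM in siKeap1 cells, 58.4, 73.5 and 65.9 CPM in siFem1b cells and 53.9, 51.9 and 42.9 CPM in siFem1b/Keap1 cells, against 102, 105 and 116 CPM in siCont cells. It fell by 0.35, 0.70 and 1.11 on the log2 scale, with SEs of 0.092, 0.092 and 0.094, and with the first run alone the siKeap1 call was lost (-0.26, edgeR adjusted p = 0.068). Bub3, which carries BUB1 and BUBR1 to kinetochores, had 118, 115 and 123 CPM in siKeap1 cells, 100, 88.6 and 95.1 CPM in siFem1b cells and 76.2, 75 and 76 CPM in siFem1b/Keap1 cells, against 138, 149 and 138 CPM in siCont cells. Its log2 fold change in siFem1b cells was -0.58 (SE 0.046, edgeR adjusted p = 2.9e-09), and its 3′ UTR holds the siFem1b seed match printed above. Mad2l1, which encodes the MAD2 protein that restrains CDC20, had 80.5, 79.5 and 75.4 CPM in siKeap1 cells, 70.0, 75.5 and 69.1 CPM in siFem1b cells and 56.3, 57.7 and 55 CPM in siFem1b/Keap1 cells, against 87.6, 101 and 93.5 CPM in siCont cells. It moved least of the group in siFem1b and siFem1b/Keap1 cells, by -0.40 and -0.74 on the log2 scale, and its siFem1b and siKeap1 libraries overlapped by 1 library. Ttk, the kinase MPS1 at the head of the checkpoint, fell by 0.26, 0.42 and 0.76.

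The centromere and kinetochore genes fell in every depletion, and Cenpa had the largest fall of the 5 in siFem1b and siFem1b/Keap1 cells. Their median levels were 74.6%, 71.8% and 47.1% of siCont in siKeap1, siFem1b and siFem1b/Keap1 cells. Cenpa, the histone H3 variant that marks the centromere, had 85.2, 82.4 and 83.8 CPM in siKeap1 cells, 69.0, 63.3 and 68.0 CPM in siFem1b cells and 46.4, 40.9 and 46.8 CPM in siFem1b/Keap1 cells, against 106, 118 and 112 CPM in siCont cells. Cenpa changed by -0.42 (SE 0.052, edgeR adjusted p = 2.2e-06), -0.75 (SE 0.052, 4.4e-10) and -1.33 (SE 0.054, 1.3e-13) on the log2 scale, which left 39.8% of the siCont level with both siRNAs.

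Cenpf, a large kinetochore and microtubule-binding protein, was lower in siKeap1 than in siFem1b cells. It had 168, 173 and 159 CPM in siKeap1 cells, 199, 202 and 181 CPM in siFem1b cells and 116, 112 and 105 CPM in siFem1b/Keap1 cells, against 248, 224 and 247 CPM in siCont cells. Cenpf had a log2 fold change of -0.53 (SE 0.053, edgeR adjusted p = 1.9e-07) in siKeap1 and -0.31 (SE 0.052, 5.5e-05) in siFem1b cells, and the siFem1b libraries were above the siKeap1 libraries. Cenpe, the kinetochore kinesin that moves chromosomes to the spindle equator, had 203, 199 and 195 CPM in siKeap1 cells, 181, 178 and 160 CPM in siFem1b cells and 118, 112 and 110 CPM in siFem1b/Keap1 cells, against 250, 226 and 247 CPM in siCont cells. Cenpe had log2 fold changes of -0.27, -0.48 and -1.09. Ndc80, the microtubule-binding subunit of the outer kinetochore, had 39.7, 38.1 and 38.4 CPM in siKeap1 cells, 43.1, 43.0 and 40.9 CPM in siFem1b cells and 31.7, 28.0 and 28.1 CPM in siFem1b/Keap1 cells, against 52.7, 50.4 and 52.5 CPM in siCont cells. It moved least of the group in siFem1b and siFem1b/Keap1 cells, by -0.29 and -0.82. Nuf2, its partner in the NDC80 complex, fell by 0.35, 0.49 and 0.99 on the log2 scale.

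The chromosomal passenger complex, which corrects faulty attachments and later acts at the midzone, fell as a whole. All 4 subunits fell in every depletion, to median levels of 79.2%, 67.9% and 50.7% of siCont in siKeap1, siFem1b and siFem1b/Keap1 cells. Aurkb, its kinase, had 70.1, 69.9 and 71.6 CPM in siKeap1 cells, 76.1, 65.6 and 68.1 CPM in siFem1b cells and 47.7, 45.5 and 48.2 CPM in siFem1b/Keap1 cells, against 87.5, 92.7 and 86.4 CPM in siCont cells. The siKeap1 and siFem1b libraries overlapped, and Aurkb fell least of the 4 in siFem1b and siFem1b/Keap1 cells, by 0.34 and 0.91 on the log2 scale. Incenp, the scaffold, had 155, 155 and 158 CPM in siKeap1 cells, 129, 115 and 128 CPM in siFem1b cells and 92.7, 90.8 and 93.8 CPM in siFem1b/Keap1 cells, against 182, 181 and 186 CPM in siCont cells. Its groups were all separate, with log2 fold changes of -0.23, -0.56 and -0.99. Birc5 (survivin) fell by 0.36, 0.56 and 0.98, and Cdca8 (borealin) fell by 0.34, 0.57 and 1.03.

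The 3 genes of anaphase and mitotic exit fell in every depletion, and Espl1 led in each. Espl1, the protease separase that cuts cohesin, had 139, 133 and 128 CPM in siKeap1 cells, 118, 113 and 119 CPM in siFem1b cells and 81.1, 76.4 and 79.8 CPM in siFem1b/Keap1 cells, against 193, 184 and 188 CPM in siCont cells. Espl1 had log2 fold changes of -0.50 (SE 0.040, edgeR adjusted p = 9e-09), -0.69 (SE 0.041, 4.1e-11) and -1.25 (SE 0.041, 9.1e-15). All 4 groups were separate. Cdc20, the activator of the anaphase-promoting complex that the checkpoint restrains, had 197, 192 and 196 CPM in siKeap1 cells, 161, 145 and 165 CPM in siFem1b cells and 118, 110 and 117 CPM in siFem1b/Keap1 cells, against 221, 234 and 223 CPM in siCont cells. It fell by 0.21, 0.52 and 0.97 on the log2 scale. Ube2c, the ubiquitin-conjugating enzyme of that complex, fell by 0.33, 0.55 and 1.06 on the log2 scale, with an SE of 0.080 in the single depletions. Of the exonic bases of Ube2c, 22.8% overlap Tnnc2, a muscle gene on the other strand, which had 2588 counts over the 12 libraries where Ube2c had 63316. Whether counting used the strand is not given in the sources used here, so reads of such pairs cannot be told apart.

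Of the 8 genes for spindle and chromosome motors and their partners, 7 fell in siKeap1 cells, 6 fell and 1 rose in siFem1b cells, and 8 fell in siFem1b/Keap1 cells. Tpx2, which activates Aurora A on spindle microtubules, had 212, 221 and 221 CPM in siKeap1 cells, 175, 170 and 174 CPM in siFem1b cells and 123, 117 and 119 CPM in siFem1b/Keap1 cells, against 264, 267 and 270 CPM in siCont cells. Tpx2 had log2 fold changes of -0.29 (SE 0.035, edgeR adjusted p = 1.7e-06), -0.63 (SE 0.035, 2e-11) and -1.16 (SE 0.036, 3.8e-15). The 4 groups were separate and the libraries of each lay close together. Kif22, a chromosome-bound kinesin, had 66.2, 65.3 and 64.8 CPM in siKeap1 cells, 62.2, 61.9 and 63.5 CPM in siFem1b cells and 45.4, 41.4 and 42 CPM in siFem1b/Keap1 cells, against 88.7, 95.4 and 89.0 CPM in siCont cells. It had the lowest value of the group in siKeap1 cells, -0.48 (SE 0.043, edgeR adjusted p = 4.4e-08).

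Nusap1, a microtubule-binding protein of the spindle near chromosomes, was the second gene that rose in siFem1b cells. It had 48.8, 46.9 and 49.2 CPM in siKeap1 cells, 71.6, 67.3 and 66.3 CPM in siFem1b cells and 42.8, 42.6 and 42.8 CPM in siFem1b/Keap1 cells, against 60.7, 65.4 and 61.9 CPM in siCont cells. The 4 groups did not overlap, with siFem1b cells highest and siFem1b/Keap1 cells lowest. Against siCont it was at -0.37 (SE 0.044, edgeR adjusted p = 1.2e-06) in siKeap1, 0.13 (SE 0.043, 0.015) in siFem1b and -0.55 (SE 0.044, 1.9e-09) in siFem1b/Keap1 cells on the log2 scale. The rise in siFem1b cells did not pass without siFem1b 1, siCont 1 or siCont 3 (edgeR adjusted p = 0.097, 0.078 and 0.054).

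Kif18a, a kinesin that shortens kinetochore microtubules, was the least abundant of the 42 genes and varied most. It had 20.4, 19.4 and 16.2 CPM in siKeap1 cells, 16.2, 21.1 and 15.3 CPM in siFem1b cells and 15.1, 14.4 and 12 CPM in siFem1b/Keap1 cells, against 20, 21.1 and 23.3 CPM in siCont cells. The single depletions overlapped siCont cells and were not past the threshold, at -0.20 (SE 0.12, edgeR adjusted p = 0.22) and -0.30 (SE 0.12, 0.054). The siFem1b value passed in 7 alternatives, among them DESeq2 (adjusted p = 0.029) and the fit without siFem1b 2 (-0.44, edgeR adjusted p = 0.0014). With both siRNAs Kif18a was lower than in siCont cells, at -0.63 (SE 0.13, 0.00063). Kif11, the motor that pushes spindle poles apart, Kif2c, a microtubule depolymerase, Kif4, a chromosome-bound kinesin, and Hmmr, a spindle protein, fell in all 3 depletions, between -0.24 and -0.44 in siKeap1, -0.25 and -0.52 in siFem1b and -0.88 and -0.97 in siFem1b/Keap1 cells.

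Of the 6 genes for the midzone and cytokinesis, 5 fell in siKeap1 cells and 6 fell in siFem1b and in siFem1b/Keap1 cells. Kif20a, a kinesin that brings the passenger complex to the midzone, had 227, 223 and 215 CPM in siKeap1 cells, 107, 104 and 111 CPM in siFem1b cells and 83.9, 79.3 and 81.6 CPM in siFem1b/Keap1 cells, against 260, 270 and 268 CPM in siCont cells. It had the lowest log2 fold change of all 42 genes in siFem1b cells, -1.31 (SE 0.039, edgeR adjusted p = 3.4e-15), and in siFem1b/Keap1 cells, -1.70 (SE 0.039, 9.9e-17), where it was 3.26-fold lower. In siKeap1 cells it fell by 0.26, within the group's range of -0.33 to -0.21. Its 3′ UTR holds a match to the siFem1b seed, and 29.3% of its exonic bases overlap Cdc23 on the other strand. Cdc23 had 34587 counts over the 12 libraries where Kif20a had 74657.

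Anln (anillin), which organises the contractile ring, had 393, 392 and 377 CPM in siKeap1 cells, 376, 393 and 390 CPM in siFem1b cells and 278, 272 and 252 CPM in siFem1b/Keap1 cells, against 471, 452 and 495 CPM in siCont cells. The single depletions overlapped, with log2 fold changes of -0.29 each, and siFem1b/Keap1 cells were lower, at -0.82. Ect2, the exchange factor that activates RhoA for cytokinesis, had 127, 125 and 120 CPM in siKeap1 cells, 105, 109 and 98.1 CPM in siFem1b cells and 76.4, 71.0 and 67.8 CPM in siFem1b/Keap1 cells, against 137, 138 and 154 CPM in siCont cells. It had the smallest fall of the group in siKeap1 cells, -0.21 (SE 0.053, edgeR adjusted p = 0.0037), and -0.46 and -0.99 in the other depletions. Prc1, which bundles midzone microtubules, had 226, 225 and 228 CPM in siKeap1 cells, 237, 211 and 221 CPM in siFem1b cells and 163, 154 and 155 CPM in siFem1b/Keap1 cells, against 287, 276 and 291 CPM in siCont cells. Prc1 fell by 0.33, 0.35 and 0.85 on the log2 scale, and its single depletions overlapped.

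Kif23, the kinesin of the centralspindlin complex, had 119, 119 and 124 CPM in siKeap1 cells, 127, 119 and 119 CPM in siFem1b cells and 87.1, 86.7 and 86.5 CPM in siFem1b/Keap1 cells, against 150, 149 and 150 CPM in siCont cells. Its fall with both siRNAs, -0.78 (SE 0.037, edgeR adjusted p = 1.1e-12), was the smallest of the group. Kif20b, a kinesin of late cytokinesis, had 74.6, 75.5 and 70.7 CPM in siKeap1 cells, 62.4, 73.9 and 61.3 CPM in siFem1b cells and 53.3, 50.4 and 43.0 CPM in siFem1b/Keap1 cells, against 83.2, 79.0 and 93.0 CPM in siCont cells. In siKeap1 cells its libraries were below siCont without overlap, but the value of -0.21 (SE 0.087, edgeR adjusted p = 0.070) was not past the threshold. It passed there with DESeq2 (adjusted p = 0.039), with no filter, in the fit of the compared groups alone, and without siFem1b 2 or siFem1b/Keap1 3 (edgeR adjusted p = 0.046 and 0.044).

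Top2a and Mki67, which shape mitotic chromosomes, both fell in every depletion, and both were lower in siKeap1 than in siFem1b cells. Top2a, the topoisomerase that untangles sister chromatids, had 467, 468 and 445 CPM in siKeap1 cells, 505, 518 and 509 CPM in siFem1b cells and 306, 286 and 278 CPM in siFem1b/Keap1 cells, against 702, 690 and 730 CPM in siCont cells. All 4 groups were separate, and siKeap1 cells were lower than siFem1b cells. The log2 fold change of -0.62 (SE 0.040, edgeR adjusted p = 4.2e-10) was the lowest of all 42 genes in siKeap1 cells, and it was -0.47 (SE 0.040, 7e-09) in siFem1b and -1.29 (SE 0.041, 5.6e-15) in siFem1b/Keap1 cells. Mki67, the Ki-67 protein that coats mitotic chromosomes and is used as a marker of dividing cells, had 561, 559 and 547 CPM in siKeap1 cells, 647, 564 and 603 CPM in siFem1b cells and 391, 370 and 371 CPM in siFem1b/Keap1 cells, against 766, 669 and 730 CPM in siCont cells. The siFem1b and siCont libraries were the most spread, and all siFem1b libraries lay below all siCont libraries. Mki67 had log2 fold changes of -0.38 (SE 0.051, edgeR adjusted p = 7.6e-06), -0.25 (SE 0.051, 0.00026) and -0.93 (SE 0.051, 1.1e-11).

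**Figure D4:**
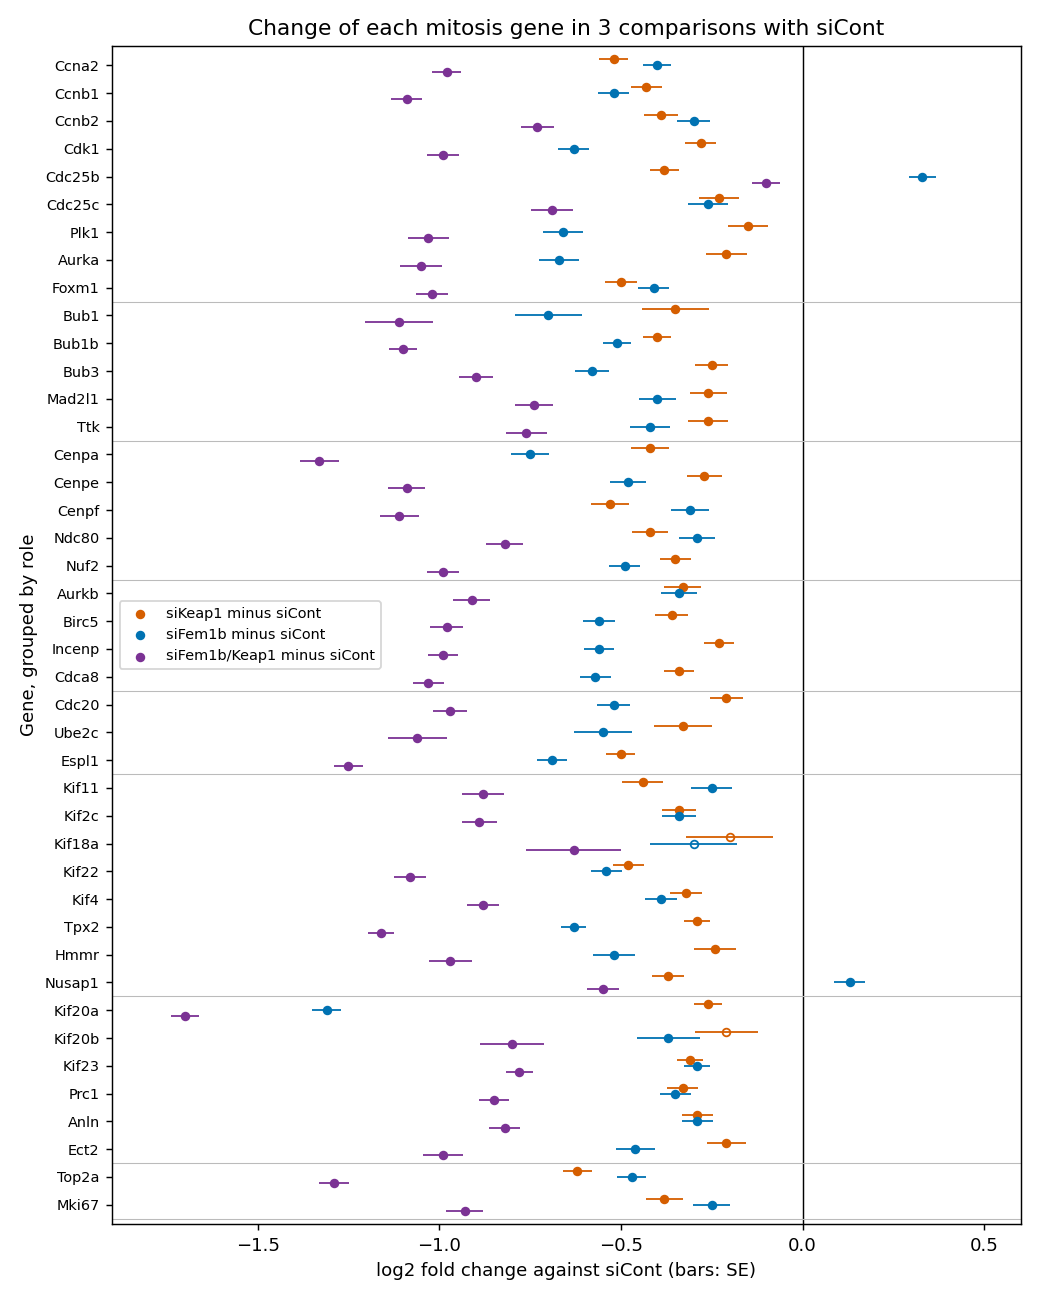
Log2 fold change of each of the 42 mitosis genes against siCont in siKeap1, siFem1b and siFem1b/Keap1 cells, with bars for the SE; filled points passed the threshold of 0.05 and open points did not. The siFem1b/Keap1 points lie furthest left in every row but that of Cdc25b, and the points right of 0 are those of Cdc25b and Nusap1 in siFem1b cells.

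Set against the single depletions, the double depletion was lower for nearly all of the genes. The libraries did not overlap, with siFem1b/Keap1 lower, for 41 genes against siKeap1 and 42 against siFem1b cells, where 34.5% and 25.3% of all tested genes had this order. Compared with siKeap1 cells, 41 genes were lower and Cdc25b was higher in siFem1b/Keap1 cells, with a median log2 fold change of -0.61, where 31.6% of all tested genes were lower and 32.0% higher. Compared with siFem1b cells, 41 were lower, with a median of -0.50, where 21.8% of all tested genes were lower and 21.3% higher. The gene not past the threshold there was Kif18a (-0.33, SE 0.13, edgeR adjusted p = 0.052), whose libraries did not overlap. Against siKeap1 cells Nusap1 was at -0.18 (SE 0.045, edgeR adjusted p = 0.0019), and at -0.08 (0.10) with library totals. Kif20a differed most from siKeap1 cells (-1.44) and Top2a most from siFem1b cells (-0.81).

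The single depletions differed from each other gene by gene. In siFem1b against siKeap1 cells 21 genes were lower, 8 were higher and 13 were not past the threshold, where 31.8% of all tested genes were lower and 32.1% higher. All 3 siFem1b libraries were below all 3 siKeap1 libraries for 20 genes and above them for 9, where 33.5% of all tested genes were below. The share of all tested genes above was not counted. The median was -0.12. The lowest values were those of Kif20a (-1.05, edgeR adjusted p = 3.1e-14), Plk1 (-0.51, 2.2e-07) and Aurka (-0.46, 1e-06). The 8 higher genes were Cdc25b (0.72, edgeR adjusted p = 7.6e-12), Nusap1 (0.50, 7.2e-09), Cenpf, Kif11, Top2a, Ndc80, Mki67 and Ccna2. With the first run alone or without siKeap1 3, 5 genes were higher. With library totals 16 were lower and 11 higher, and the median was -0.051. By role, all 5 checkpoint genes and all 3 anaphase genes were lower in siFem1b cells, and Top2a and Mki67 were higher.

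Whether both siRNAs together did more than the separate changes combined was tested by the interaction, the log2 change that the Keap1 siRNA made beside the Fem1b siRNA less the log2 change it made alone. A value below 0 means that the level with both was lower than the product of the single changes. All 42 values were below 0, where 46.0% of all tested genes had a value below 0, and the median was -0.17, against 0.02 for all tested genes. Past the threshold were 14 genes, all below 0, where 5.32% of all tested genes passed below 0 and 6.11% above. At an unadjusted p under 0.05 stood 24 of the 42 genes and 3565 of all tested genes. The smallest p-values were those of Nusap1 (-0.31, SE 0.062, edgeR adjusted p = 0.0029), Tpx2 (-0.24, SE 0.050, 0.0033), Cenpe (-0.34, SE 0.070, 0.0034), Ect2 (-0.33, SE 0.075, 0.0070), Mki67 (-0.30, SE 0.072, 0.0089) and Anln (-0.24, SE 0.061, 0.013). The others past the threshold were Cenpf, Cdc20, Kif23, Bub1b, Top2a, Incenp, Aurkb and Kif2c. None of the 9 genes that start mitosis passed, and the nearest to 0 was Ccnb2 (-0.03, SE 0.065, edgeR adjusted p = 0.82).

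The interaction depended on the scale and on single libraries. On the linear scale the summed level of the 42 genes differed from siCont by -1706 CPM in siKeap1 and -2042 CPM in siFem1b cells, which add up to -3748 CPM, and by -3841 CPM in siFem1b/Keap1 cells. Multiplied single changes would leave 57.3% of the siCont level and added ones 51.5%, against 50.3% observed. On the linear scale 23 of the 42 genes were below the sum, where 44.5% of all tested genes were. The count past the threshold was 14, but it was 6 without siKeap1 1, 7 without siKeap1 2, 8 without siFem1b 1, siFem1b/Keap1 2 or siCont 1, and 4 with an offset for transcript length. The balance of all tested genes also turned: with either run alone, or without siFem1b 2 or 3 or siFem1b/Keap1 1 or 3, their median interaction lay between -0.020 and -0.015, and more of them passed below 0 than above (306 above and 623 below with the first run alone).

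**Figure D5:**
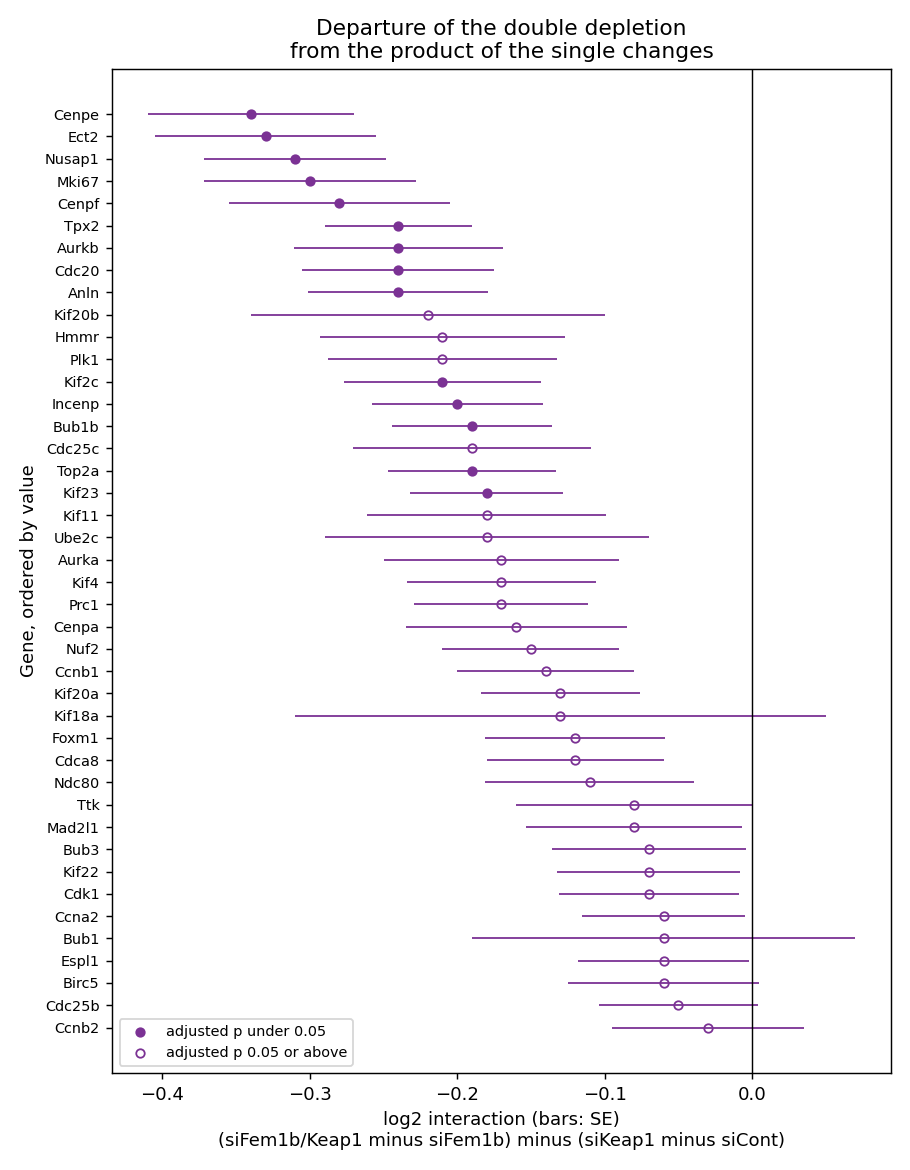
Log2 interaction of each of the 42 mitosis genes, ordered by value, with bars for the SE; filled points passed the threshold of 0.05. All points lie below 0, from -0.34 for Cenpe to -0.03 for Ccnb2, and 14 are filled.

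Markers of other cell states also differed between the groups, each list in its own way. Of all tested genes, 18.4%, 30.0% and 33.8% rose in siKeap1, siFem1b and siFem1b/Keap1 cells, and 23.8%, 32.1% and 33.7% fell. All 10 markers of differentiated muscle cells rose in siFem1b and in siFem1b/Keap1 cells, and their summed level was 17.3 to 18.7 CPM in siKeap1 cells, 266 to 288 CPM in siFem1b cells and 174 to 184 CPM in siFem1b/Keap1 cells, against 17.4 to 21.6 CPM in siCont cells. In siKeap1 cells 1 of the 10 rose and 6 fell, some of them near the floor. Over 3 libraries Myog had 4 counts in siKeap1 and 171 in siCont cells, and Myh3 had 65 and 183. Myog, the factor that starts differentiation, had 0.026 to 0.0528 CPM in siKeap1 cells, 57.3 to 62.2 CPM in siFem1b cells and 4.21 to 5.47 CPM in siFem1b/Keap1 cells, against 1.32 to 1.85 CPM in siCont cells. Acta1, a muscle actin, made up 127 to 142 CPM of the sum in siFem1b/Keap1 cells and 62.9 to 65.9 CPM in siFem1b cells. The sum of the muscle markers was lower in siFem1b/Keap1 than in siFem1b cells. The 6 fibroblast markers summed to 168 to 176 CPM in siKeap1 and 430 to 485 CPM in siFem1b cells. In siFem1b/Keap1 cells the sum was 340 to 379 CPM, against 197 to 210 CPM in siCont cells. Col1a1, a collagen, made up most of each sum. It had 153 to 163, 415 to 470 and 324 to 362 CPM in the 3 depletions, against 187 to 198 CPM in siCont cells. Of the 6, 1 rose and 1 fell in siKeap1 cells. In siFem1b and in siFem1b/Keap1 cells 4 rose, and Postn and Thy1 were not past the threshold. All 5 epithelial markers that passed the filter, of 7, rose in siFem1b/Keap1 cells, after 3 in siKeap1 and 4 in siFem1b cells. Krt18 was below 0.1 CPM in every siCont, siKeap1 and siFem1b library. Cdh1 had 0.0783 to 0.191 CPM in siCont and 3.5 to 4.6 CPM in siFem1b/Keap1 cells. Krt18 and Cdh1 passed the filter only through groups where they are high, so their rises there are no separate support. Together the 7 summed to 102 to 108 CPM in siKeap1, 82.2 to 90.4 CPM in siFem1b and 146 to 164 CPM in siFem1b/Keap1 cells, against 42.5 to 47.6 CPM in siCont cells. Krt14, a keratin, had 60.2 to 65.0 CPM in siKeap1 cells, 11.6 to 13.7 CPM in siFem1b cells and 31.1 to 32.5 CPM in siFem1b/Keap1 cells, against 8.95 to 10.7 CPM in siCont cells. Krt19, another keratin, had 38.6 to 41.7, 67.3 to 74.1 and 107 to 123 CPM in these groups, against 33.1 to 37.7 CPM in siCont cells, while Epcam stayed below 0.1 CPM in every library. Of the 6 leukocyte markers 3 passed, of which 3 rose in siKeap1, 1 in siFem1b and 2, Cd14 and Cd68, in siFem1b/Keap1 cells, and Adgre1 was at 0 in every library. The 6 summed to 17.3 to 18.9, 11.3 to 12.4 and 19.5 to 20.7 CPM, against 11.1 to 12.8 CPM in siCont cells. The part of these cell states in the fall of the mitosis genes was not tested.

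Other genes of mitosis, from further lists of the same pathway, mostly fell too. The counts stand beside 23.8%, 32.1% and 33.7% of all tested genes that fell in siKeap1, siFem1b and siFem1b/Keap1 cells, and 18.4%, 30.0% and 33.8% that rose. Of 33 further kinetochore and centromere genes, 23 fell and 1, Zwint, rose in siKeap1 cells, 27 fell in siFem1b cells and 33 fell in siFem1b/Keap1 cells, with median log2 fold changes of -0.25, -0.44 and -0.76. The smallest p-values there were those of Spc24 (-0.59) in siKeap1, Zwint (-0.79) in siFem1b and Spdl1 (-1.04) in siFem1b/Keap1 cells. Of 26 further genes of the spindle and cytokinesis, 17, 23 and 25 fell and none rose, with medians of -0.20, -0.35 and -0.68. Racgap1, the partner of KIF23 in centralspindlin, had the smallest p in siKeap1 (-0.52) and siFem1b/Keap1 cells (-0.93), and Cit, the citron kinase, had it in siFem1b cells (-0.89). Of 21 genes for condensin, cohesin and securin, 17 fell in siKeap1 cells, 17 fell and Nipbl and Stag2 rose in siFem1b cells, and 19 fell in siFem1b/Keap1 cells, with medians of -0.25, -0.28 and -0.69. Rad21, a cohesin subunit, had the smallest p in siKeap1 cells (-0.43), and Ncapd2, a condensin subunit, had it in siFem1b (-0.50) and siFem1b/Keap1 cells (-1.04).

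Of 13 further regulators of entry, 7 fell in siKeap1 cells, 12 fell in siFem1b cells, and 12 fell and Ensa rose in siFem1b/Keap1 cells, with medians of -0.24, -0.39 and -0.75. The smallest p-values there were those of Ccnf (-0.54), Cdc25a (-0.73) and Melk (-0.88). The 17 genes of the anaphase-promoting complex and its partners moved in both directions. Of all tested genes, 23.8%, 32.1% and 33.7% fell and 18.4%, 30.0% and 33.8% rose in the same comparisons. There 10 fell in siKeap1 cells, 10 fell and 3 rose in siFem1b cells, and 12 fell and 3 rose in siFem1b/Keap1 cells, with Anapc2, Anapc10 and Anapc11 as the genes that rose and medians of -0.26, -0.28 and -0.42. Fbxo5, an inhibitor of the complex, had the smallest p in siKeap1 cells (-0.54), and Anapc1, its scaffold, had it in siFem1b (-0.64) and siFem1b/Keap1 cells (-0.82). In the interaction, 5 of the further spindle and cytokinesis genes and 2 of the condensin, cohesin and securin genes passed below 0, where 5.32% of all tested genes did. Above 0, where 6.11% of all tested genes passed, were 1 of the further kinetochore genes (Zwint), 1 of the entry regulators (Ensa) and 2 of the anaphase-promoting complex (Anapc16 and Cdc23). The genes that rose in these lists were named after their values were seen.

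The genes of DNA replication and S phase, the preceding stretch of the cycle, fell alongside. Of 37 such genes, 27 fell in siKeap1 cells, 36 fell in siFem1b cells and 37 fell in siFem1b/Keap1 cells, and none rose, beside the same shares of all tested genes. Their median log2 fold changes were -0.23, -0.51 and -0.77, beside -0.33, -0.46 and -0.98 for the mitosis genes. Mcm10, a replication initiation factor, had the smallest p in siKeap1 (-0.93) and siFem1b/Keap1 cells (-1.51), and Mcm5, a subunit of the replicative helicase, had it in siFem1b cells (-0.73). The median interaction of the S phase genes was -0.05, with 0 past the threshold below 0 and Mcm10 past it above 0 (0.23, edgeR adjusted p = 0.034). The difference between the lists was not tested.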

How the data were processed

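RNA of 12 C2C12 libraries was sequenced, each in 2 runs, which gave 24 deposited tables. The submitters' processing notes name kallisto 0.44.0 and build mm10; the annotation release, trimming, filters and strand setting are not given in the sources used here. Each table lists the authors' estimated counts (expected counts), their TPM and an effective length (other) for 118489 transcripts. Of these, 116728 (98.5%) matched GENCODE M21 on GRCm38, and the unmatched ones, left out, carried 0.608% to 0.637% of counts. Estimated counts were summed per gene and over both runs and rounded.

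The fit used edgeR 4.0.16 in R 4.3.3 (robust quasi-likelihood, TMM, filterByExpr, a term per group, all 12 libraries, 2-sided), with p-values adjusted by Benjamini and Hochberg over all 14577 tested genes and a threshold of 0.05. CPM are counts scaled by library total times TMM factor. TPM were summed per gene and used only for levels between genes. The code was tested on simulated data. Of the 12 second runs, 11 resembled their own first run most; that of siKeap1 2 differed from it by 2.59 and from the first run of siKeap1 1 by 2.55 (chi-square per gene). First runs of libraries in a group differed by 1.54 to 7.19, and both runs of a library by 2.30 to 2.87, so the closest libraries differed less than repeat runs do. All values exceed counting noise, but so do those of repeat runs, so they cannot show whether libraries are distinct. No libraries were merged.

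The mitosis genes, further lists, markers and tests were chosen with earlier results of these data known. Genes given in full were Top2a, Mki67, Ccnb1, Cdk1, Plk1, Foxm1 and the lowest and highest of each role group in each comparison with siCont; also named were genes not past the threshold or moving the other way, the 6 smallest interaction p-values, and the smallest p of each further list. Seed matches of 7 bases were searched in 1 transcript per gene, which for Ect2 carries no annotated 3′ UTR. Alternatives were DESeq2 1.42.0 (size factors, or its Wald test), library totals, no filter, each run alone, a replicate block, the compared groups only, a length offset and each library left out. The linear scale was added after the data were seen.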

Additional observations from a re-analysis of the deposited data

Results flagged for a closer look

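The effect of 1 siRNA differed with the other present for 14 of the 42 mitosis genes, by the test of the interaction term (edgeR, Benjamini-Hochberg adjusted p under 0.05), where 5.32% of all tested genes passed below 0 and 6.11% above. The count was 6 without siKeap1 1, 7 without siKeap1 2, 8 without siFem1b 1, siFem1b/Keap1 2 or siCont 1, and 4 with a length offset. In each of these the change in siFem1b/Keap1 against siFem1b cells was further below 0 than the change in siKeap1 against siCont cells. The 6 with the smallest p had log2 interactions of -0.31 for Nusap1, -0.24 for Tpx2, -0.34 for Cenpe, -0.33 for Ect2, -0.30 for Mki67 and -0.24 for Anln. For Nusap1 the log2 fold change was -0.68 in siFem1b/Keap1 against siFem1b cells and -0.37 in siKeap1 against siCont cells. For Cenpe these values were -0.61 and -0.27, and for Ect2 -0.54 and -0.21. Groups of 3 libraries are too small for the test of a library that stands apart.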

How the results depend on the processing

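Of 5118 alternative values of single genes, 5033 kept their direction and their side of the threshold, 71 lost and 13 gained a call, and 1 reversed. The reversed value was that of Cdc25b in siFem1b/Keap1 against siCont cells, 0.026 with library totals in place of TMM (edgeR adjusted p = 0.59). With library totals the median of all genes was 0.090 in siFem1b and 0.128 in siFem1b/Keap1 against siCont cells, beside -0.009 and 0.005 with TMM, and the medians of the mitosis genes were -0.365 and -0.856. The share of calls above 0 was then 60.6% against 48.3% with TMM for siFem1b, 62.1% against 50.1% for siFem1b/Keap1, and 61.7% against 50.3% for siFem1b/Keap1 against siKeap1 cells. The cause was not tested. Of the counts of mitosis genes, those lower against siCont ranged over libraries left out from 39 to 41 in siKeap1, 39 to 40 in siFem1b and 41 to 42 in siFem1b/Keap1 cells, and those higher in siFem1b cells from 1 to 2. In siFem1b against siKeap1 cells 5 to 8 were higher with a library left out, and 5 with the first run alone. The interaction count of 14 ranged from 6 to 21 with a library left out and was 4 with a length offset, where 391 of all genes passed above and 461 below 0, against 891 and 776. A group reduced to 2 libraries is assumed to vary like the others. The interaction was below 0 for 41 genes with the length offset or without siFem1b 1, and for 23 on the linear scale.

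Replicate numbers are shared between groups, but same-numbered libraries did not deviate together (correlations -0.078 to 0.117 over 18 pairs, median -0.0202), so the numbers were not taken as pairs. With a replicate block the interaction count was 9; every other count stayed within 1.5 times its value. Kif18a had the largest SE, 0.12 to 0.13 in the pairwise comparisons, and the cause was not tested.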

Other observations

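The genes for cell cycle transcription complexes, which include the regulators that bind the promoter elements above, moved in both directions. Of 22 such genes, 14 fell and 2 rose in siKeap1 cells, 12 fell and 5 rose in siFem1b cells, and 16 fell and 3 rose in siFem1b/Keap1 cells. Of all tested genes, 23.8%, 32.1% and 33.7% fell and 18.4%, 30.0% and 33.8% rose in these comparisons. Their median log2 fold changes were -0.26, -0.17 and -0.42, beside -0.33, -0.46 and -0.98 for the mitosis genes. Mybl2, which encodes the B-MYB protein that joins MuvB at late cell cycle genes, had the smallest p in all 3 comparisons, with log2 fold changes of -0.81 (edgeR adjusted p = 2.5e-11) in siKeap1 cells, -0.86 (4.5e-12) in siFem1b cells and -1.45 (3.8e-15) in siFem1b/Keap1 cells. The genes that rose were E2f6 and Lin37 in siKeap1 cells, E2f2, Nfyb, Rb1, Rbl2 and Tfdp2 in siFem1b cells, and Lin37, Rb1 and Rbl2 in siFem1b/Keap1 cells, all named after their values were seen. In the interaction, where 5.32% of all tested genes passed below 0 and 6.11% above, none passed below 0 and 3 passed above it, E2f4, E2f5 (0.48, edgeR adjusted p = 0.0014) and Mybl2. The difference from the mitosis genes was not tested.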
